A study of Mus musculus with 6 samples.

Results

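Integrins are the receptors by which cells hold on to the extracellular matrix, and the genes described here encode integrins, the proteins that couple them to actin filaments, and the myosins that pull on those filaments. The genes were taken by symbol: alpha and beta integrins (Itga and Itgb), myosin heavy chains and light chains (Myh, Myo and Myl), alpha-actinins (Actn), tropomyosins (Tpm), PDLIM proteins (Pdlim), parvins (Parv), talins (Tln) and tensins (Tns). A region of open chromatin belonged to the gene that the deposited table names for it. For a region without a named gene, the candidates were only the 12711 protein-coding genes that the table names for other regions. Among these the gene with the closest start was taken, up to a distance of 100 kb. A gene that the table names nowhere could therefore receive no region, and regions near it could pass to a neighbour. The rule gave 375 of the 58172 regions and 64 of the 104 RefSeq genes whose symbols match. The table itself assigned 99 of the 375 regions, and distance alone assigned the other 276. No region was tied to its gene by anything but position. Coordinates are mm10, as deposited. By symbol the beta integrin group also takes Itgb1bp1, Itgb1bp2 and Itgb3bp, which are not integrins.

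The assay was ATAC-seq, which uses the Tn5 transposase to cut open DNA and attach sequencing adapters to it. The material was endothelial cells isolated from mouse lung, with 3 libraries from WT, Cre-negative mice and 3 from CSE-KO, Cre-positive mice. CSE is cystathionine gamma-lyase, which makes cysteine and is encoded by Cth. The labels name neither the Cre driver nor the deleted stretch of Cth, and Cre and the loss of CSE cannot be told apart because every CSE-KO library is also Cre-positive. Age, sex, strain and the number of mice behind each library are not in the labels. The p-values below therefore measure the spread between these libraries, which may be technical.

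An integrin is a pair of 1 alpha and 1 beta chain that spans the membrane. Talin binds the beta chain's tail and switches the receptor on, and parvins, tensins and alpha-actinins link the occupied receptor to actin. Non-muscle myosin II, made of heavy chains and light chains, slides along actin filaments that tropomyosins wrap and alpha-actinins cross-link. Endothelial cells use this machinery to withstand flow, to close gaps and to move during vessel growth.

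Promoter sequences are shown for 4 genes whose promoter region changed (Myl12b, Itga3, Itgb5 and Pdlim3), and for the 2 genes whose RefSeq window holds a CArG box and overlaps a promoter region (Myl9 and Myo1e). Each is the 250 bases before the start site in RefSeq's GRCm38.p6 table, which is mm10, written 5′ to 3′ on the gene's strand. Capitals mark the ETS core GGAA in Myl12b and Itga3, the KLF letters GGGTGT in Itgb5, the TEAD letters GGAATG in Pdlim3 and the CArG box, to which serum response factor binds, in Myl9 and Myo1e. A match on the other strand appears as its reverse complement. The letters marked in Itgb5, 145 bases before the start site, lie outside the region that changed (chr16:33829554-33830435).

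Myl12b, chr17:70990517-70990766, minus strand: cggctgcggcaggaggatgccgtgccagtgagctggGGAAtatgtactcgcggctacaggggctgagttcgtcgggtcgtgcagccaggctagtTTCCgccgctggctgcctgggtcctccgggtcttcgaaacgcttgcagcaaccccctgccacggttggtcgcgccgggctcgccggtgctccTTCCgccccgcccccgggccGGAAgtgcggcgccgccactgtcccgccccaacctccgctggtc
Itga3, chr11:95076715-95076964, minus strand: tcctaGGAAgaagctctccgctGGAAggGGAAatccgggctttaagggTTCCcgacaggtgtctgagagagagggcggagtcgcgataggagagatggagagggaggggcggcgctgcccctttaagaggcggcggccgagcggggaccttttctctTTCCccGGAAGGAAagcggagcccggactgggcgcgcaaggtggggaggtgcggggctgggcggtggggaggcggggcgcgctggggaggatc
Itgb5, chr16:33829415-33829664, plus strand: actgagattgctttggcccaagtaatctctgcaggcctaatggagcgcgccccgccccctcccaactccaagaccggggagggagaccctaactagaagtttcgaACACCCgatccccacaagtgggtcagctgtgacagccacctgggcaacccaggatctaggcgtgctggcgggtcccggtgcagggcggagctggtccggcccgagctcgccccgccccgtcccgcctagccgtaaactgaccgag
Pdlim3, chr8:45885237-45885486, plus strand: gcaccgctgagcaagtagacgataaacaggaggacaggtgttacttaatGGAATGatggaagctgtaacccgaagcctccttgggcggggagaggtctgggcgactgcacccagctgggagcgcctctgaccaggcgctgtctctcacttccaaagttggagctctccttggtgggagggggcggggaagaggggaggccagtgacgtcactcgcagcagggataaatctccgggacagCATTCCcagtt
Myl9, chr2:156775214-156775463, plus strand: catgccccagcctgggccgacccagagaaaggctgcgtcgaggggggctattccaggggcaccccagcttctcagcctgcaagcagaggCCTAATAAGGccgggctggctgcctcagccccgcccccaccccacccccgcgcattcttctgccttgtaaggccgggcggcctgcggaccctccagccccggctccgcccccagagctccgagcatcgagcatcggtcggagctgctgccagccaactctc
Myo1e, chr9:70207100-70207349, plus strand: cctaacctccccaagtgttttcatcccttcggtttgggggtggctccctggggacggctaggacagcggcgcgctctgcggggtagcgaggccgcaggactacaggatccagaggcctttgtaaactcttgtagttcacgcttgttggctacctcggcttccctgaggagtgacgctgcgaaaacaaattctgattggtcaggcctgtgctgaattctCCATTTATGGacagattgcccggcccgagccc

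The promoter table matched 51 of the 64 genes with 61 windows of 300 bases (250 before the start site and 50 after), and 35 of those windows overlapped a promoter region described here. The ETS core, 4 letters long and common by chance, stood in 93.4% of the 61 windows and in 96.0% of all 32851 windows. KLF letters were in 19.7% against 16%, TEAD letters, which contain the ETS core, in 16.4% against 14.7%, and the AP-1 letters TGANTCA in 8.20% against 7.81%. The SMAD letters GTCTAGAC were in none of the 61 and in 0.213% of all windows. A CArG box was in 6 of the 61 windows (9.84%), against 1.63% of all. Those 6 belong to Itgb6, Myl3, Myl6, Myl7, Myl9 and Myo1e, so 4 of them are myosin light chains. Only the Myl9 and Myo1e windows overlap a promoter region, and the share among the 35 overlapping windows was 5.71%. Both strands were searched, and a match is a run of letters and not a shown binding site.

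At the targeted gene, the promoter region of Cth had values of 195, 157 and 167 in WT against 11, 6 and 2 in CSE-KO, so no library went against its label there. The deposited values summed to between 5242490 and 5547417 per library. In the CSE-KO columns 1 read was worth 1.53 to 1.64 value units, which gives about 3330000 to 3620000 reads, and in the WT columns at most 1, so WT rests on more reads. The residual SD on the log2 scale was 0.299 to 0.318 in WT against 0.477 to 0.485 in CSE-KO. Promoter regions were found for 10 of 13 endothelial markers (among them Cdh5, Kdr, Tek and Erg), with summed values of 1285 to 1357 in WT against 1384 to 1559 in CSE-KO. Of these, Kdr and Tek were higher and Tie1 and Egfl7 lower in CSE-KO. Among markers of other cells, promoter regions were found for 3 of 11 smooth muscle and pericyte genes (summed 254 to 308 in WT, 214 to 248 in CSE-KO, Mustn1 lower), 1 of 6 fibroblast genes (Col1a1, 56 to 74 in WT against 110 to 163 in CSE-KO, higher), 1 of 9 leukocyte genes (Spi1, 155 to 194 in WT against 91 to 106 in CSE-KO, lower) and 2 of 8 lung epithelial genes (summed 128 to 164 in WT against 131 to 189 in CSE-KO, Epcam higher). Over all regions of the endothelial markers, distal ones included, 3 of 69 were higher and 19 lower (4.35% and 27.5%), with a median log2 change of -0.38. Among all tested regions 7.7% were higher and 9.6% lower, with a median of -0.004. For smooth muscle and pericyte markers 1 of 23 regions was higher and 5 were lower (4.35% and 21.7%). For lung epithelial markers 3 of 22 were higher (13.6%) and none lower. Fibroblast markers had 1 higher and 1 lower of 8, and leukocyte markers none and 1 of 5, too few regions for a share to say much. Fewer cells of a type and a less open region per cell cannot be told apart in such libraries, and the part of other cell types in the results below was not tested.

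Regions of integrin, myosin and adaptor genes changed in both directions, with more falls than rises away from promoters. By limma's test with Benjamini-Hochberg adjustment over all regions, 33 of the 375 regions were higher in CSE-KO (8.80%) and 44 lower (11.7%). Over all 58129 tested regions the shares were 7.7% higher and 9.6% lower, so both shares lie near the background. WT and CSE-KO did not overlap at 42.9% of the 375 regions and at 39.5% of all. All 375 passed the filter of a mean value of at least 5. A change of 2-fold or more was seen in 19 of the higher and 22 of the lower regions. Over all regions it was seen in 2513 of the 4478 higher and 3445 of the 5579 lower ones. Of the 64 genes, 14 had calls in both directions, 13 only lower, 10 only higher and 27 none. This count by gene was not made for all genes, and it depends on how many regions a gene has.

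**Figure D1:**
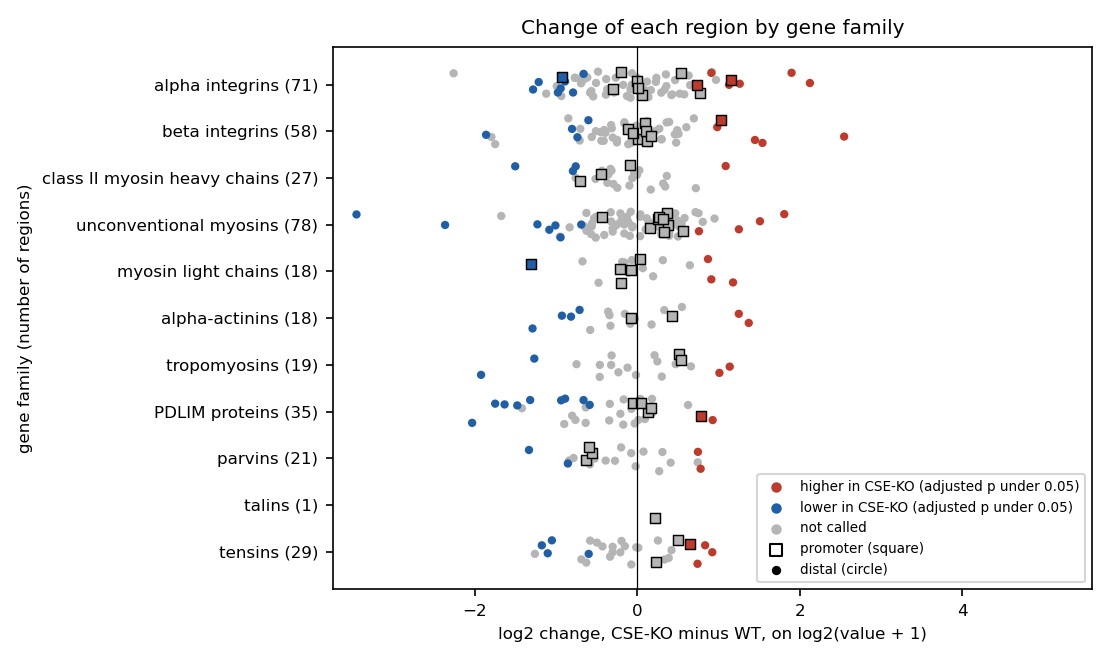
Change of every region in each of the 11 gene families. The horizontal axis is the log2 change, CSE-KO minus WT, on log2(value + 1), each point is 1 region, squares are promoters, and red or blue marks a call by limma (adjusted p under 0.05). Both colours occur in every family except the talins, whose single region was not called.

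Promoter regions, whose centre lies within 1 kb of the start site, were mostly not called. Of 51 such regions of 48 genes, 5 were higher and 2 lower (9.80% and 3.92%), against 5.23% higher and 3.29% lower among all promoter regions. Of the 324 other regions, called distal here, 28 were higher and 42 lower (8.64% and 13.0%), against 8.43% and 11.5% of all distal regions. The median log2 change was 0.10 at these promoters (0.11 at all promoters) and -0.16 at the distal regions (-0.06 at all distal regions). In 29 of the 45 genes with both kinds of region, the promoter's change lay above the median change of the gene's distal regions. In 18 of them the promoter's change was above 0 and the distal median below 0, and in 6 the reverse held. These counts were not made for all genes, and the medians of all promoters and all distal regions differ in the same direction. As a share of all values, the 324 distal regions took 0.478%, 0.474% and 0.458% in the WT libraries and 0.416%, 0.412% and 0.411% in the CSE-KO libraries. The promoters took 0.172% ± 0.0063 (WT) and 0.171% ± 0.0097 (CSE-KO) of all values (SD, n = 3 each). The distal share was thus lower in every CSE-KO library than in every WT library, and the promoter share overlapped. The 6 regions with a value over 10000, none of them a member, held 0.664% to 0.960% of the values in WT libraries and 5.42% to 5.65% in CSE-KO libraries, which lowers every other share there. Without these 6, a choice made after seeing the data, the distal share was 0.474% ± 0.011 (WT) and 0.437% ± 0.0025 (CSE-KO), and still lower in each CSE-KO library. All distal regions of the table together took 57.5% ± 0.77 (WT) and 54.6% ± 1.00 (CSE-KO) on that basis, so their share was lower too.

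**Figure D2:**
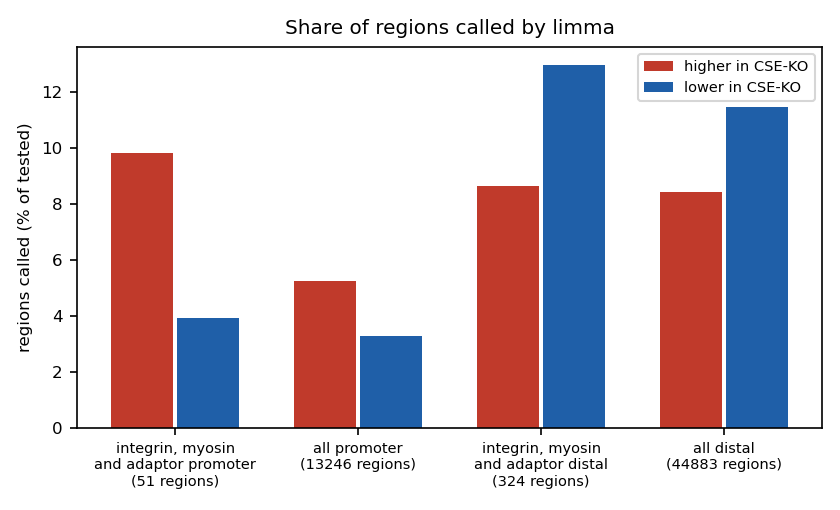
Share of tested regions called higher or lower in CSE-KO by limma, for promoter and distal regions of the integrin, myosin and adaptor genes beside all promoter and all distal regions. The vertical axis is a percentage of tested regions and starts at 0. The bars of these genes stand close to those of all regions of the same class, with the widest gap at higher promoters, where 5 of 51 regions were called.

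The alpha integrins, which set the matrix ligand of the pair, held 8 higher and 8 lower regions of 71, over 12 genes. Each share was 11.3%, against 7.7% higher and 9.6% lower among all regions. Itga7, a laminin receptor chain known from muscle, had a more open promoter (chr10:128933725-128934100). Its values were 25, 23 and 27 in WT against 51, 61 and 59 in CSE-KO, so the groups were well apart. The change was 1.16 ± 0.16 (log2, SE), 2.23-fold, with an adjusted p of 0.00719. Within the same gene, 16.6 kb downstream of the start, the direction was opposite, with 71, 50 and 54 in WT against 25, 28 and 34 in CSE-KO (-0.98 ± 0.21, adjusted p = 0.022).

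Itga3, the alpha chain of a laminin receptor on epithelial and other cells, had promoter values of 142, 159 and 140 in WT against 209, 244 and 285 in CSE-KO (chr11:95076130-95077046). The rise was 0.73 ± 0.18, or 1.66-fold, with an adjusted p of 0.0348, and none of its 6 distal regions was called. Itga6, the alpha chain of laminin receptors that is abundant on endothelium, went the other way at a region centred 0.565 kb before its start (chr2:71744781-71745321). Values there were 52, 54 and 49 in WT against 18, 32 and 33 in CSE-KO, a fall of 0.92 ± 0.25 on the log2 scale (adjusted p = 0.0466). Its 8 distal regions had no call.

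Itga2, the collagen-binding alpha chain, had 3 calls among 10 regions, and all 3 were higher. At 13.9 kb upstream the values were 101, 78 and 78 in WT against 196, 193 and 180 in CSE-KO (1.15 ± 0.17, adjusted p = 0.00852). The other two lie 22.2 kb downstream, with 6, 5 and 9 against 31, 21 and 30, and 32.3 kb upstream within the span of the neighbouring Itga1, with 36, 40 and 40 against 67, 77 and 77. The Itga2 promoter had 53, 52 and 66 in WT against 95, 100 and 59 in CSE-KO, which overlap (adjusted p = 0.172). No region was assigned to Itga1, which encodes another collagen receptor chain. The table itself assigns Itga1 none, so by the rule none could go to it.

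Itgav, the alpha chain of vitronectin and fibronectin receptors, fell at 2 of 4 distal regions. At 5.11 kb downstream the values were 173, 168 and 160 in WT against 105, 89 and 77 in CSE-KO (-0.89 ± 0.18, adjusted p = 0.0179). At its promoter the values overlapped, at 326, 295 and 314 against 297, 336 and 307. Itga9, whose product binds tenascin and is needed in lymphatic valves, changed in both directions far inside the gene, with 31, 38 and 39 in WT against 15, 17 and 11 in CSE-KO at 89.3 kb (-1.28 ± 0.21, adjusted p = 0.0102). At 99.8 kb it had 29, 26 and 21 against 62, 77 and 49 (1.26 ± 0.22, adjusted p = 0.0129). Itgae, a chain found on lymphocytes of epithelia, was lower 5.16 kb upstream (87, 95 and 74 against 39, 41 and 52, adjusted p = 0.0189).

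Itga5 encodes the alpha chain of the main fibronectin receptor. Its promoter values overlapped, at 152, 156 and 175 in WT against 137, 185 and 187 in CSE-KO (adjusted p = 0.843). A weak region 27.0 kb upstream, outside the rule for named regions and chosen after its values were seen, rose from 13, 9 and 9 to 44, 54 and 46 (2.13 ± 0.20, adjusted p = 0.00292). The promoter regions of Itga4, Itga8 and Itga11 were not called, Itga8 had 1 lower region 49.6 kb upstream, inside Mindy3 (27, 33 and 26 against 18, 17 and 18, adjusted p = 0.0368), which ended without any 1 of the 6 libraries (adjusted p 0.0606 to 0.129), and Itga2b had 3 distal regions with none. Besides Itga1, no region was assigned to Itga10 or to the leukocyte chains Itgad, Itgal, Itgam and Itgax.

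The calls at the Itga7 promoter, at 13.9 kb and 22.2 kb of Itga2, at 89.3 kb of Itga9 and at 27.0 kb of Itga5 stood in each of the 6 fits that left out 1 library. The other alpha integrin calls named here ended without WT replicate 1, 2 or 3, except the Itga9 rise, which ended without WT replicate 2 or 3, and those at Itga3 and Itga6 also ended without CSE-KO replicate 2 (and at Itga3 replicate 3), with adjusted p from 0.0504 to 0.135 in those fits.

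**Figure D3:**
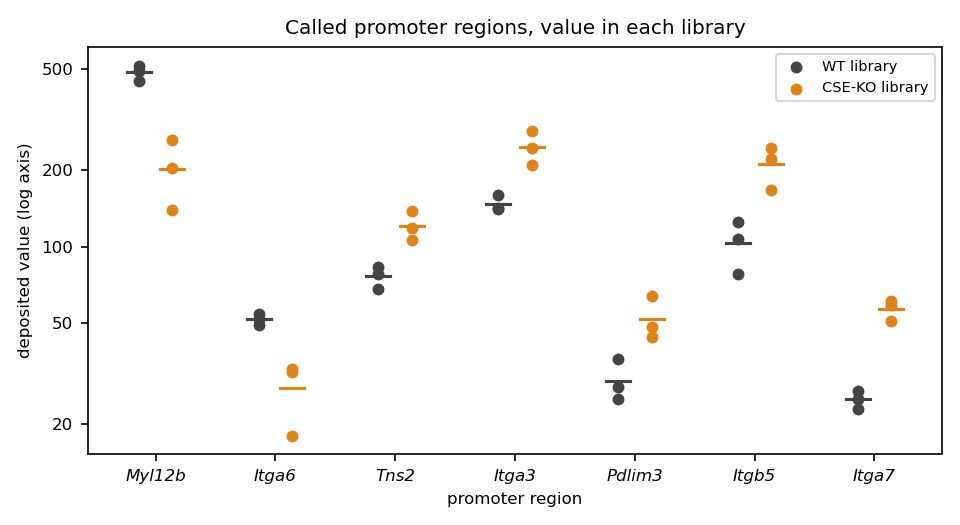
Values in each library at the 7 called promoter regions. The vertical axis is the deposited value on a log axis, and each point is 1 library of WT or CSE-KO (n = 3 each). The CSE-KO points lie below those of WT at Myl12b and Itga6 and above them at the other 5 genes.

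The beta integrins and the 3 integrin-binding proteins held 5 higher and 4 lower regions of 58, over 10 genes. These are 8.62% and 6.90%, against 7.7% and 9.6% of all regions. Itgb5, the partner of the alpha V chain in a vitronectin receptor, had the only called promoter (chr16:33829554-33830435). Its values were 78, 107 and 125 in WT against 167, 244 and 221 in CSE-KO, a rise of 1.03 ± 0.24, or 2.04-fold (adjusted p = 0.0297).

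Itgb1, the beta chain shared by most integrins, had 2 neighbouring regions upstream that moved in opposite directions. At 22.4 kb upstream (chr8:128663018-128663493) the values were 203, 224 and 195 in WT against 131, 129 and 112 in CSE-KO, a change of -0.74 ± 0.16 (adjusted p = 0.0245). At 18.8 kb upstream (chr8:128666633-128667158) they were 57, 56 and 79 in WT against 186, 162 and 213 in CSE-KO, a change of 1.54 ± 0.21, or 2.91-fold (adjusted p = 0.00634). The promoter of Itgb1 had 298, 295 and 363 against 314, 323 and 317, and its groups overlapped.

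Itgb3, which also pairs with the alpha V chain, moved in both directions within the gene. Values at 10.8 kb downstream were 192, 194 and 182 in WT against 91, 141 and 98 in CSE-KO (-0.80 ± 0.21, adjusted p = 0.039). At 22.4 kb downstream they were 35, 29 and 24 against 75, 72 and 98 (1.45 ± 0.21, adjusted p = 0.00767). Itgb6, an epithelial partner of alpha V, was higher 33.4 kb downstream, at 87, 107 and 79 against 34, 54 and 50 in WT (adjusted p = 0.0297). Itgb8, whose product binds latent TGF-beta, had the largest rise of all 375 regions, chosen after its values were seen. This region 10.1 kb upstream went from 8, 21 and 12 to 75, 93 and 71 (2.55 ± 0.33, adjusted p = 0.00561).

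Itgb2, the beta chain of leukocyte integrins, had 4 distal regions with no call and no promoter region. Itgb4, Itgb1bp1 and Itgb3bp had no call, Itgb1bp2 fell at 1 distal region, and Itgb7 had no region. The rises at Itgb1, Itgb3 (22.4 kb) and Itgb8 stood in all 6 fits with 1 library left out. The other beta integrin calls named above with an adjusted p ended without any 1 WT library, and in addition without CSE-KO replicate 3 at the Itgb1 fall, replicate 1 or 3 at the Itgb3 fall, replicate 2 or 3 at Itgb5 and replicate 1 or 2 at Itgb6 (adjusted p from 0.0512 to 0.12).

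**Figure D4:**
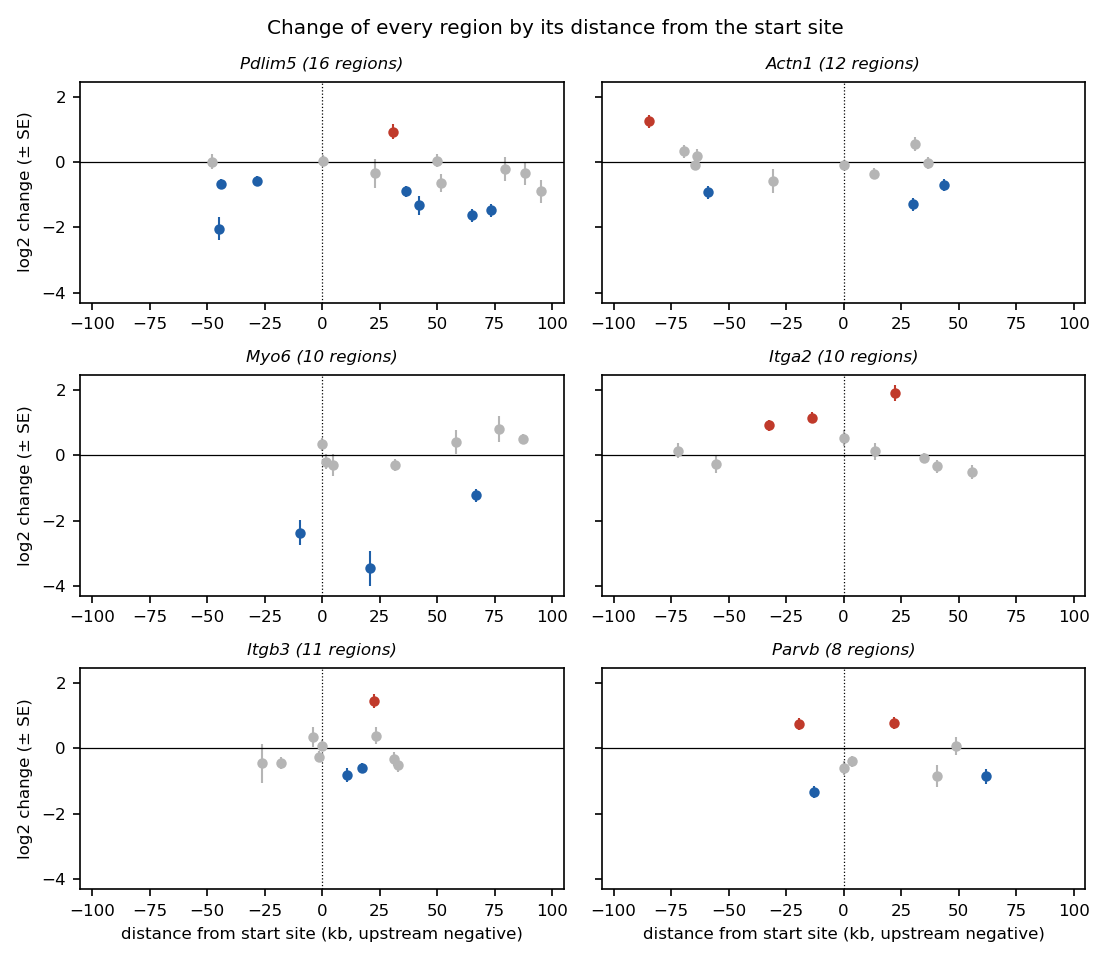
Change of every region of 6 genes by its distance from the start site. Each panel is 1 gene, the horizontal axis is the distance in kb (upstream negative), the vertical axis is the log2 change (CSE-KO minus WT) with its SE, and red or blue marks a call by limma. Pdlim5 shows 7 lower and 1 higher region, Myo6 3 lower and Itga2 3 higher, and Itgb3, Actn1 and Parvb show calls in both directions.

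Among the proteins that join integrins to actin, talin 1 (Tln1), the activator of the receptor, had 1 region, its promoter, with 353, 319 and 341 in WT against 392, 400 and 389 in CSE-KO. The CSE-KO values were all higher, yet the change of 0.22 ± 0.15 was not called (adjusted p = 0.338). Tln2 had no region.

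Parvins bind integrin-linked kinase and actin. Their 3 promoter regions all had lower means in CSE-KO without a call, with a median log2 change of -0.59. At the Parvb promoter the values were 273, 233 and 267 in WT against 134, 202 and 182 in CSE-KO (-0.59 ± 0.20, adjusted p = 0.0881). The 2 Parva regions had 25, 31 and 27 against 21, 17 and 15 (adjusted p = 0.0618), and 185, 209 and 246 against 95, 156 and 197 (adjusted p = 0.211). Parva had 13 regions in all and no call. Parvb had 2 higher and 2 lower regions among 7 distal ones, with the clearest change 12.9 kb upstream (chr15:84218772-84219448), where 169, 173 and 149 in WT stood against 75, 55 and 64 in CSE-KO (-1.33 ± 0.18, adjusted p = 0.00647). The higher ones were at 19.4 kb upstream, inside Samm50 (78, 107 and 79 against 154, 129 and 159, adjusted p = 0.0413), and 21.9 kb downstream (44, 31 and 37 against 70, 64 and 59, adjusted p = 0.0325). Without any 1 WT library, or without CSE-KO replicate 1, both of these rises lost their call (adjusted p 0.0578 to 0.137), as did the first without replicate 3 and the second without replicate 2, whereas the fall at 12.9 kb kept it in all 6 fits.

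Tensins sit in mature, fibrillar adhesions and bind both integrin tails and actin. Of their 29 regions 4 were higher and 4 lower (13.8% each, against 7.7% and 9.6% of all regions). Tns2 had a called promoter (chr15:102100395-102100836) with 78, 68 and 83 in WT against 106, 138 and 118 in CSE-KO (0.65 ± 0.18, adjusted p = 0.0476). At 3.94 kb downstream it was also higher, with 82, 92 and 105 against 206, 135 and 164 (0.84 ± 0.21, adjusted p = 0.0369). At 17.7 kb, inside Spryd3, it was lower, with 83, 63 and 83 against 34, 25 and 49 (-1.10 ± 0.27, adjusted p = 0.0334).

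Tns3 fell 9.31 kb upstream from 125, 125 and 123 to 65, 37 and 67 (-1.18 ± 0.25, adjusted p = 0.0225), and its promoter had 137, 131 and 160 against 155, 224 and 236 without a call. Tns1 rose 87.5 kb downstream, with 58, 62 and 57 against 142, 112 and 90 (0.92 ± 0.20, adjusted p = 0.0252). At 54.1 kb it fell from 200, 176 and 169 to 123, 129 and 107 (-0.60 ± 0.17, adjusted p = 0.0497). Every tensin call named here was lost without any 1 WT library. Those at Tns2 were lost also without 2 of the 3 CSE-KO libraries, the Tns1 rise without CSE-KO replicate 2 and the Tns1 fall without any 1 of the 6 libraries, with adjusted p from 0.0514 to 0.16.

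Alpha-actinins cross-link actin filaments and bind beta integrin tails. The non-muscle genes Actn1 and Actn4 had 18 regions, 2 higher and 4 lower, and the muscle genes Actn2 and Actn3 none. The shares of these few regions were 11.1% and 22.2%, against 7.7% and 9.6% of all regions. Actn1 had 12 regions. At 30.3 kb downstream (chr12:80229855-80230358) its values were 202, 182 and 169 in WT against 90, 78 and 59 in CSE-KO (-1.29 ± 0.20, adjusted p = 0.00942). At 84.6 kb upstream, inside Dcaf5, they were 30, 26 and 20 against 62, 55 and 66 (1.25 ± 0.20, adjusted p = 0.00957). The Actn1 promoter had 387, 446 and 452 against 390, 418 and 402, which overlap. Actn4 fell at 38.3 kb from 204, 180 and 210 to 108, 123 and 105 (-0.82 ± 0.16, adjusted p = 0.0184). At 9.46 kb Actn4 rose from 13, 15 and 10 to 44, 49 and 18 (adjusted p = 0.0484). The Actn1 calls whose values are given stood in all 6 fits with 1 library left out. Both Actn4 calls ended without any 1 WT library, the rise also without CSE-KO replicate 1 or 2 (adjusted p 0.0549 to 0.147). The other Actn1 falls, whose values are not given, lie 58.8 kb upstream and 43.8 kb downstream. The upstream one ended without any 1 WT library (adjusted p 0.0600 to 0.0740). The downstream one ended without any 1 of the 6 libraries (adjusted p 0.0565 to 0.140).

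PDLIM proteins carry PDZ and LIM domains and sit on alpha-actinin and actin bundles. Of the families they had the largest gap between lower and higher calls, with 2 higher and 9 lower of 35 regions. Of the 30 distal ones 1 was higher and 9 were lower (3.33% and 30%, against 8.43% and 11.5% of all distal regions). Their median change was -0.47, against -0.06 at all distal regions. Pdlim5 (also known as ENH) accounted for 7 of the lower and 1 of the higher calls, out of 16 regions, which was the largest number for 1 gene. The widest fold was at 44.7 kb upstream (chr3:142440273-142440607), with 74, 86 and 73 in WT against 21, 28 and 10 in CSE-KO (-2.03 ± 0.35, adjusted p = 0.0115). Inside the gene it was lower at 65.1 kb, with 108, 97 and 90 against 25, 31 and 38 (-1.63 ± 0.20, adjusted p = 0.005). At 73.6 kb the values were 116, 99 and 86 against 31, 34 and 41 (-1.48 ± 0.19, adjusted p = 0.00587).

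The higher Pdlim5 region, at 30.7 kb, had 16, 27 and 26 in WT against 42, 41 and 48 in CSE-KO (adjusted p = 0.0363). The Pdlim5 promoter overlapped between groups, at 452, 465 and 465 against 407, 524 and 500. Pdlim3, known from the Z-discs of muscle, had a promoter that was higher (28, 36 and 25 against 64, 44 and 48, 0.79 ± 0.22, adjusted p = 0.0499) and a region 10 kb upstream that was lower (188, 164 and 161 against 85, 34 and 43, -1.75 ± 0.33, adjusted p = 0.0154). Pdlim4 was lower 8.60 kb downstream, with 229, 218 and 204 against 129, 123 and 90 (adjusted p = 0.0201). Pdlim1 and Pdlim7 had no call, and Pdlim2 had no region. The Pdlim5 falls at 65.1 and 73.6 kb stood in all 6 fits with 1 library left out, and the one at 44.7 kb reached an adjusted p of 0.0501 without WT replicate 2. The Pdlim5 falls whose values are not given lie 36.6 and 42.3 kb downstream and 28.4 and 44.1 kb upstream. They ended in 2, 4, 6 and 5 of these fits, in that order. The Pdlim5 rise and the Pdlim3 promoter ended without any 1 of the 6 libraries, and the Pdlim3 and Pdlim4 falls without any 1 WT library (adjusted p 0.0558 to 0.157).

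Tropomyosins lie along actin filaments and decide which myosins and cofilins gain access to them. Tpm4, a mainly non-muscle gene, had the largest change of the family 1.31 kb from its start (chr8:72131256-72131708). Values were 138, 154 and 127 in WT against 34, 31 and 44 in CSE-KO, a change of -1.92 ± 0.19, or 3.80-fold lower (adjusted p = 0.00317), and this stood in all 6 fits with 1 library left out. The other Tpm4 region, at 5.32 kb, had 296, 227 and 257 against 288, 262 and 356 without a call.

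Tpm1 had 3 called regions, all over 60 kb upstream. It was higher at 91.2 kb (37, 31 and 40 against 74, 67 and 79, 1.01 ± 0.17, adjusted p = 0.0117) and at 66.7 kb (13, 10 and 19 against 26, 37 and 31, adjusted p = 0.0277). At 96.8 kb it was lower (10, 18 and 14 against 7, 6 and 3, adjusted p = 0.0372). At its promoter the values were 153, 151 and 159 in WT against 232, 260 and 180 in CSE-KO, which did not overlap but missed the threshold (0.52 ± 0.19, adjusted p = 0.1). Without WT replicate 2 each of the 3 calls ended. Those at 66.7 and 96.8 kb ended also without WT replicate 1 or CSE-KO replicate 2 or 3, and the latter without WT replicate 3 (adjusted p 0.0525 to 0.12). Tpm2 and Tpm3 had no call.

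Class II myosin heavy chains form the motor of contraction. Myh9 and Myh10, the non-muscle forms IIA and IIB, carried all 4 calls of the family's 27 regions, 1 higher and 3 lower. The family's shares were 3.70% and 11.1%, against 7.7% and 9.6% of all regions. Myh9 was lower at 2 of 9 distal regions and its promoter values were lower without a call. At 41.2 kb downstream (chr15:77800429-77801567) its values were 595, 566 and 552 in WT against 328, 352 and 331 in CSE-KO (-0.76 ± 0.15, adjusted p = 0.0178). At 14.6 kb upstream they were 133, 114 and 125 against 69, 81 and 64 (-0.79 ± 0.17, adjusted p = 0.0231). The Myh9 promoter had 400, 417 and 423 against 294, 325 and 294, with no overlap and an adjusted p of 0.0875. Without any 1 WT library both Myh9 calls ended, at adjusted p from 0.0661 to 0.0891.

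Myh10 rose 1.11 kb downstream of its start, with 24, 23 and 25 in WT against 54, 46 and 57 in CSE-KO (1.09 ± 0.16, adjusted p = 0.00821), in all 6 fits with 1 library left out. Its promoter beside it had 372, 343 and 405 against 307, 380 and 371, which overlap. A weak region 33.6 kb upstream fell from 10, 15 and 13 to 8, 3 and 2 (adjusted p = 0.0432), and lost its call without any 1 WT library or without CSE-KO replicate 2 or 3 (adjusted p 0.0855 to 0.132). Myh11, the smooth muscle heavy chain, had 44, 45 and 44 against 18, 26 and 41 at its promoter without a call (adjusted p = 0.133). The skeletal and cardiac heavy chains Myh1, Myh2, Myh4, Myh6, Myh7 and Myh8 had no region.

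The light chains bind the neck of myosin II. Myl12b, a regulatory light chain of non-muscle myosin II, had the largest change among the 51 promoters (chr17:70990153-70991239). Its values were 517, 494 and 450 in WT against 139, 204 and 264 in CSE-KO, so that the highest CSE-KO library lay far below the lowest WT library. The change was -1.31 ± 0.25, or 2.48-fold lower (adjusted p = 0.0164), and without WT replicate 1, 2 or 3 the adjusted p was 0.0561 to 0.0658. Its 2 distal regions had no call, and Myl12a had no region. Myl9, the regulatory light chain of smooth muscle and many other cells, had 11, 6 and 7 against 16, 6 and 5 at its promoter, a region close to the lowest values tested.

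The essential light chains Myl6 and Myl6b had promoter regions with no call, with 139, 154 and 130 against 74, 150 and 164 at Myl6. Of the family's 18 regions 3 were higher and 1 lower (16.7% and 5.56%, against 7.7% and 9.6% of all regions). Myl3, a ventricular light chain, had 2 higher regions. It was higher 9.12 kb upstream of its start, inside Pth1r, with 45, 38 and 34 against 70, 74 and 71 (0.87 ± 0.17, adjusted p = 0.0173). Leaving out WT replicate 2 or WT replicate 3 took that call away, at adjusted p of 0.0698 to 0.0727. A weak region 24.8 kb upstream, chosen after its values were seen, rose from 10, 11 and 10 to 26, 23 and 25 (1.18 ± 0.15, adjusted p = 0.00588) in each fit with 1 library left out.

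Unconventional myosins move cargo and tether membranes to actin, and 4 of their 78 regions were higher and 7 lower, over 14 genes. These shares, 5.13% and 8.97%, lie near the 7.7% and 9.6% of all regions. None of their 9 promoter regions was called, with a median change of 0.32. Myo6, the motor that walks towards the minus end of actin and serves endocytosis, fell at 3 of 9 distal regions. At 9.53 kb upstream (chr9:80155298-80155700) its values were 128, 127 and 118 in WT against 46, 15 and 18 in CSE-KO (-2.37 ± 0.39, 5.16-fold lower, adjusted p = 0.0104). At 66.9 kb downstream they were 48, 56 and 47 against 25, 20 and 18 (-1.23 ± 0.19, adjusted p = 0.00838). A weak region at 21.0 kb, chosen after its values were seen, had 19, 13 and 18 in WT against 3, 0 and 0 in CSE-KO (adjusted p = 0.00875). These 3 calls stood in all 6 fits with 1 library left out, and the Myo6 promoter overlapped between groups (235, 245 and 262 against 255, 368 and 320).

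Myo10, the motor that carries integrins to the tips of filopodia, was lower 76.7 kb downstream (78, 73 and 58 against 36, 43 and 25, -1.01 ± 0.24, adjusted p = 0.0317). Its promoter had higher values in each CSE-KO library (393, 396 and 451 against 552, 506 and 538) but was not called (adjusted p = 0.149). Myo1c, which links membranes to actin, was lower 1.16 kb upstream of its start (93, 100 and 84 against 54, 34 and 43, -1.08 ± 0.21, adjusted p = 0.0167). These Myo10 and Myo1c calls ended without any 1 WT library, and the Myo10 call at 76.7 kb also without CSE-KO replicate 1 or 3 (adjusted p 0.0542 to 0.11). Another Myo10 fall, 58.7 kb upstream, ended without any 1 WT library or without CSE-KO replicate 2 or 3 (adjusted p 0.0534 to 0.112).

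Myo1e, which acts at sites of endocytosis and at adhesions, rose at 2 weak regions inside the gene, both chosen after their values were seen. At 41.7 kb the values were 14, 19 and 13 in WT against 44, 66 and 59 in CSE-KO (1.81 ± 0.23, adjusted p = 0.00532), in all 6 fits with 1 library left out. At 50.5 kb they were 23, 22 and 17 against 69, 40 and 79 (1.51 ± 0.28, adjusted p = 0.0149), which ended without any 1 WT library (adjusted p 0.0501 to 0.0621). The promoter region nearest its start, which overlaps the window with the CArG box shown above, had 237, 198 and 209 against 154, 169 and 153 (adjusted p = 0.108). Myo18b had 2 higher regions, at 4.45 kb upstream (16, 19 and 13 against 46, 38 and 34, adjusted p = 0.0104) and 25.5 kb downstream (8, 6 and 10 against 13, 14 and 15, adjusted p = 0.0464). The first stood in all 6 fits with 1 library left out, and the second ended without any 1 library (adjusted p 0.0622 to 0.14). Myo5b had 1 lower region (19, 16 and 16 against 8, 9 and 8, adjusted p = 0.0116), with an adjusted p of 0.0531 without WT replicate 1. These 3 regions were also chosen after their values were seen. Myo1d, Myo5a, Myo5c, Myo7a, Myo9a, Myo15b and Myo18a had no call.

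Across the families, 21 of the 77 calls stood in all 6 fits with 1 library left out (27.3%, against 27.8% of all 10057 calls), 12 higher and 9 lower, in 16 genes. The plot of the distal ones gives their values by library, and the separation of the groups there follows from how these regions were chosen.

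**Figure D5:**
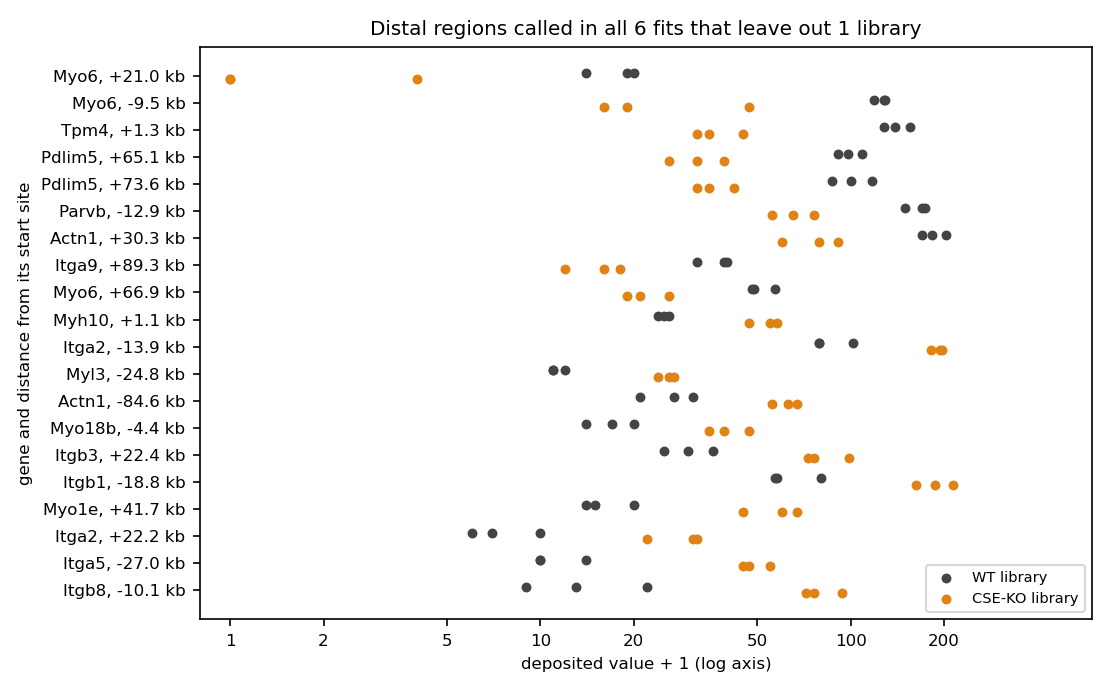
Values in each library at the 20 distal regions that were called in all 6 fits leaving out 1 library. The horizontal axis is the deposited value plus 1 on a log axis, and each point is 1 WT or CSE-KO library. The groups do not overlap in any row, as the choice of regions makes likely, and the rows run from the falls at Myo6 to the rises at Itga5 and Itgb8.

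The 33 higher regions had a median width of 344 bp and a median mean value of 44 over the 6 libraries, and the 44 lower ones 503 bp and 78. Among all called regions the widths were 360 and 491 bp and the mean values 50.5 and 62.3, in the same order. The medians by group, whose order the calls themselves fix in part, were 27 in WT and 62.7 in CSE-KO for the higher regions, and 107 and 46.8 for the lower ones. Of the 375 regions 220 lay within the span of their own gene, with 17 higher and 21 lower. Of the 105 between genes 11 were higher and 21 lower, and of the 50 inside another gene 5 were higher and 2 lower. Among 40 pairs of neighbouring called regions of 1 gene, 22 moved the same way and 18 in opposite directions. Neither the split by place nor the count of pairs was made for all regions, so no background stands beside them.

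A list of other adhesion, actin and contractility genes, with 80 of 92 genes represented, had 25 higher and 45 lower of 405 regions. These shares, 6.17% and 11.1%, lie near those of all regions (7.7% and 9.6%). The median log2 change was -0.04, against -0.004 over all regions. Focal adhesion kinase (Ptk2), which signals beneath bound integrins, had the strongest fall named there, 23.9 kb from its start, with 217, 200 and 179 in WT against 46, 38 and 46 in CSE-KO (-2.17 ± 0.17, adjusted p = 0.00202). Vim, the intermediate filament vimentin, fell at a region 9.79 kb from its start (283, 286 and 259 against 80, 58 and 103, adjusted p = 0.00561). Rhob, a small GTPase of endosomes and stress fibres, had a lower region at 56.4 kb (418, 310 and 294 against 60, 95 and 110, adjusted p = 0.00664) and a higher one at 21.5 kb (41, 33 and 27 against 96, 86 and 100, adjusted p = 0.00641). Regions of Enah, an actin polymerase helper (1.65 ± 0.23, adjusted p = 0.00705), of the GTPase gene Cdc42 (1.28 ± 0.18, adjusted p = 0.00686) and of the kinase gene Src (1.23 ± 0.19, adjusted p = 0.00835) were higher in CSE-KO.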

How the data were processed

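One deposited table was used, with 58172 regions, their mm10 coordinates and 6 columns of values, 1 per library. The submitters' processing notes list DESeq2 1.26.0, Picard 3.1.1, STAR 2.7.3a and Trimmomatic 0.39 without their roles. A peak caller, a Tn5 shift and pooling of libraries for the calling of regions are each not given in the sources used. The authors' deposited values count as a score here, being whole numbers with median-ratio factors of 1.01 in every library and skipped whole numbers in the CSE-KO columns, as rounded normalised counts would show. A count model was therefore not used.

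Every region was tested on log2(value + 1) by limma (version 3.58.1, under R 4.3.3), trend and robust off, over the 58129 regions with a mean value of at least 5, and Benjamini-Hochberg adjustment over all of them at 0.05. Changes are CSE-KO minus WT on that scale, which understates changes of weak regions, and folds are 2 to the power of the change. Groups were taken from the library titles. A run of the script on simulated data with known changes served as a check of the code only, and no result here rests on it. Regions in the text were named by rule: in each family up to 4 called regions in each direction with groups that do not overlap and a mean value of at least the median, 51.8, together with the strongest call in each direction of genes called both ways, the promoters of named genes, called promoters and the 3 genes with the most regions. A few regions chosen by this rule are left unreported. Other regions given in the text, such as a second called region of a gene, were chosen after their values were seen. The members, lists and rules were chosen with earlier results of these data known. Start sites are those of the table, and RefSeq's can differ. Same-numbered libraries did not vary together (correlations of -0.0059, -0.011 and 0.010), and the main test did not pair them. With 3 libraries a group, such correlations cannot exclude that a number marks a shared mouse or day. Alternatives changed the pseudocount, the filter, the scaling, the moderation, the gene assignment and the promoter width, and left out each library in turn.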

Additional observations from a re-analysis of the deposited data

How the results depend on the processing

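The counts of called regions rest on all 6 libraries. With 1 library left out, higher regions numbered 12 to 27 (33 with all), lower regions 10 to 39 (44 with all) and calls over all regions 3519 to 8922 (10057 with all), lowest without a WT library. The median changes moved from 0.0423 to 0.1518 at promoters and from -0.1721 to -0.1328 at distal regions. With the library number as a replicate block the calls fell to 20 higher, 25 lower and 6013 in all, and 33 of the 77 calls were lost. Those lost included the promoters of Itga3, Itga6, Pdlim3 and Tns2 (adjusted p 0.0728 to 0.106). The labels do not say that a number marks a shared mouse or day. With trend and robust moderation 15448 regions were called in all. The distal median was -0.1338 with a pseudocount of 5 and -0.2121 with every library scaled to the same sum. With only the regions the table itself assigns, 9 higher and 7 lower calls were counted and the distal median was -0.1031. With promoters taken within 2.5 kb their median change was 0.0052.

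Promoters with changes near 0 changed sign. With the same sum in every library the change was -0.0504 at Itgav, -0.0538 at Itgb1 and -0.0156 at Pdlim5, and with regions over 10000 left out of the sum, a choice made after seeing the data, it was 0.0093 at Itga9. With 1 library left out it ranged from -0.0883 to 0.0786 at Itga9, -0.0443 to 0.0444 at Itgav, -0.0486 to 0.1006 at Itgb1, -0.1443 to 0.0115 at Myh10, -0.4953 to 0.2857 at Myl3, -0.2746 to 0.083 at Pdlim4, -0.03 to 0.1518 at Pdlim5 and -0.0363 to 0.5627 at Tns1. None of these was called in any fit, and no called region changed sign in any alternative. The cause of these differences was not tested. The count models planned for raw counts were not run, because the values are not raw counts. CSE-KO libraries rest on fewer reads, which limits what can be seen at weak regions.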
